A study of Mus musculus with 8 samples.

Results

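miR-218 is a microRNA of motor neurons, and 3 of the 1396 miRNAs listed in a small RNA data set of mouse spinal cord come from its 2 genes. The 3 were taken by name: mmu-miR-218-5p, the arm that both genes share, and mmu-miR-218-1-3p and mmu-miR-218-2-3p, the opposite arms, each specific to 1 gene (below without the species prefix mmu). The bone cancer pain group had 4 libraries of left spinal cord from C57BL/6 mice whose left femur marrow space had received LL/2 cells, a mouse lung carcinoma line. The sham group had 4 libraries from C57BL/6 mice given normal saline at the same site. The sources used here give no age of the mice, time after surgery or level of the cord. They also do not state that each library is a different mouse, so the p-values cover the variation among these 8 libraries, part of which may be technical.

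A microRNA is cut from a hairpin precursor as a duplex, from which 1 strand, the guide, is usually kept to repress messenger RNAs that pair with its seed, bases 2 to 8, while the other strand is mostly degraded. The miR-218 genes lie within Slit2 and Slit3, which encode secreted repulsive guidance proteins, and the Slit receptor genes Robo1 and Robo2 are known targets of miR-218. In mouse embryos miR-218 is strongly enriched in motor neurons, where it represses genes of other neuron types, and mice without it have failing neuromuscular transmission.

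Mir218-1 lies at chr5:48223942-48224051 on the plus strand (GRCm38), in an intron of Slit2 (intron 14, 15 or 16 in the 4 protein-coding transcripts that span it in GENCODE M21). Mir218-2 lies at chr11:35616816-35616925, also on the plus strand, in intron 14 of Slit3-201. The files' processing notes name mm10, the same assembly. All 3 mature sequences were found in RefSeq (GRCm38.p6) and are shown because they set what each measurement can say about a gene; capitals mark the seed.
miR-218-5p: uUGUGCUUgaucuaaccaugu
miR-218-1-3p: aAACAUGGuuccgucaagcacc
miR-218-2-3p: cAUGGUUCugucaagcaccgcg
The hairpins follow, with the annotated mature arms in capitals.
Mir218-1: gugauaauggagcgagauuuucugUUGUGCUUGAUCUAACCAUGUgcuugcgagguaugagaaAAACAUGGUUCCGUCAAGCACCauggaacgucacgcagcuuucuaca
Mir218-2: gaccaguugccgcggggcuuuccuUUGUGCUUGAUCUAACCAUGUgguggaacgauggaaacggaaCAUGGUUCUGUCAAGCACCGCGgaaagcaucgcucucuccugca

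The 5p arm has the same 21 bases at both genes, so its reads cannot be assigned to either. The 3p arms can in principle be told apart, but narrowly. miR-218-2-3p is annotated to start 3 bases further into the hairpin, and the 19 bases that the 2 arms share differ at 1 position, C12U counted from the 5′ end of miR-218-1-3p. Because of the shifted start, the 2 arms have different seeds. The sources used here do not say how reads with a mismatch or a shifted end were counted. Across the whole 110-base hairpins, 70.4% of the aligned columns were identical, and the predicted folding energy was -36.6 kcal/mol for Mir218-1 and -42.3 kcal/mol for Mir218-2. Of the 1396 listed miRNAs, 1180 had a RefSeq sequence, and no other among them had the seed of any of the 3 arms.

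The libraries held 5220739 to 9260169 reads of listed miRNAs, and 1 read was worth 0.0741 to 0.130 CPM (counts scaled to a fixed library total). The listed miRNAs are only a part of that total, and the sources used here do not say what the rest is. The sequenced tissue had the miRNAs of neural tissue and of the Hox clusters: miR-10b-5p and miR-9-5p were the 2 most abundant of all listed. Skeletal muscle miRNAs were also present and uneven, with summed levels of 6068 to 16950 CPM in bone cancer pain and 5379 to 29300 CPM in sham. In a bulk sample, fewer motor neurons and less miR-218 per motor neuron cannot be told apart.

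miR-218-5p was among the most abundant miRNAs of the spinal cord and differed little between the groups. Its level was 6175, 6424, 6087 and 5799 CPM in bone cancer pain 1 to 4 and 4904, 5907, 5690.3 and 6699.8 CPM in sham 1 to 4. The groups overlapped: sham held both the lowest and the highest library, and the 4 bone cancer pain libraries lay between them. The mean was 6121 ± 258 CPM in bone cancer pain and 5800.2 ± 738 CPM in sham (SD, n = 4 each). These values rest on 47125 to 79732 reads per library, so counting error is small beside the spread between libraries. On the log2(CPM + 1) scale the log2 fold change was 0.09 (-0.16 to 0.33 at 95%; limma adjusted p = 0.943), which is 1.06-fold with an interval of 0.896-fold to 1.26-fold, an interval that excludes 1.5-fold in either direction. Under limma 0% of the 605 miRNAs tested passed an adjusted p of 0.05, and 4.63% (28) had an unadjusted p under 0.05; edgeR and DESeq2 on recovered reads also called 0, with 43 (7.11%) and 31 (5.12%) at an unadjusted p under 0.05.

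**Figure D1:**
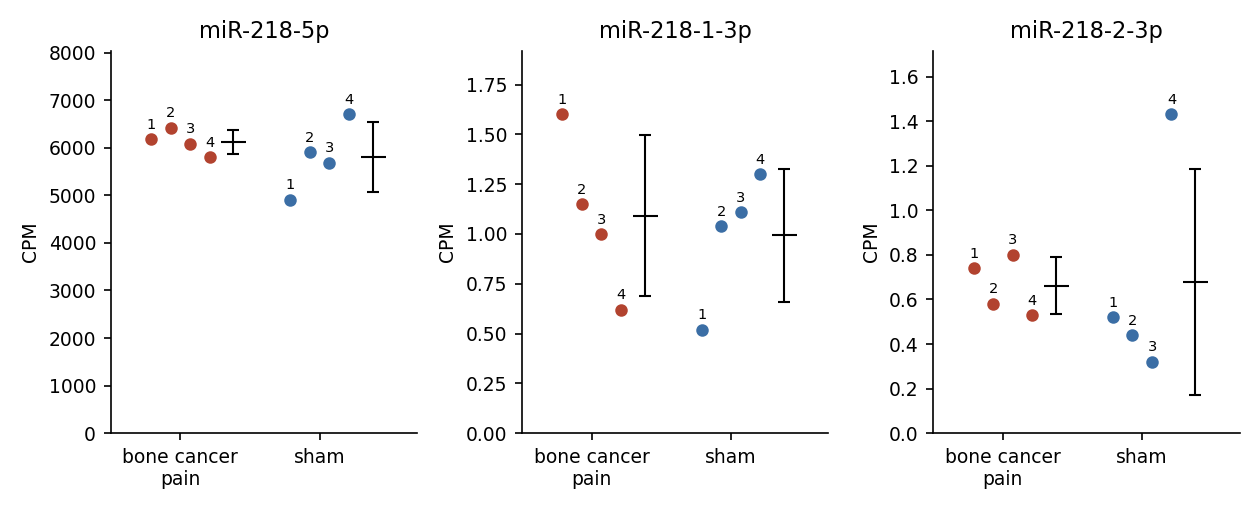
Level in CPM of the shared 5p arm and of each 3p arm by library, with its replicate number; the black mark is the group mean and its bar the SD of 4 libraries. All 3 panels show overlapping groups, with 5p values between 4904 and 6699.8 CPM and 3p values between 0.320 and 1.60 CPM.

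The rank of miR-218-5p moved little, from 20 to 22 of 1396 in bone cancer pain and from 22 to 24 in sham. It took 0.837% to 0.915% of the listed miRNA signal in bone cancer pain libraries and 0.717% to 0.986% in sham libraries. Over all 8 libraries the highest level was 1.37 times the lowest. The SD within groups was 0.14 on the log2 scale, against a median of 0.17 over the 69 miRNAs averaging 1000 CPM or more, of which 20 had a lower one. In the order of mean levels its neighbours were miR-300-3p (6515 CPM) and miR-99b-5p (6247 CPM) above and miR-381-3p (5834 CPM) and miR-379-5p (5008 CPM) below. The first 3 of these means lay within its SD in sham of that of miR-218-5p, and that of miR-379-5p lay further off. The same 4 neighbours had log2 fold changes of -0.05, 0.07, -0.23 and -0.00, and none passed the adjusted threshold with limma.

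Sham 1 and sham 4, the lowest and highest libraries for miR-218-5p, also stood at the ends of other measures. In sham 1 the skeletal muscle miRNAs summed to 29300 CPM, the highest of the 8, while sham 3, with the lowest muscle sum (5379 CPM), had the second lowest miR-218-5p. Sham 4 had the fewest listed miRNA reads. Its TMM factor, a scaling factor from the bulk of miRNAs, was 1.16, against 0.947 to 1.08 in the other 7 libraries. After TMM scaling, miR-218-5p stood at 6509, 6607, 5619 and 5916 CPM in bone cancer pain 1 to 4 and at 5176, 6149, 5905 and 5756 CPM in sham 1 to 4, so that sham 4 was no longer the highest. The log2 fold change after that scaling was 0.10 (limma adjusted p = 0.845). Without sham 1 it was 0.01, without sham 4 it was 0.16, and without sham 1 and sham 2 together, the libraries with most muscle miRNA, it was -0.01; the part of muscle RNA in these values was not tested.

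**Figure D2:**
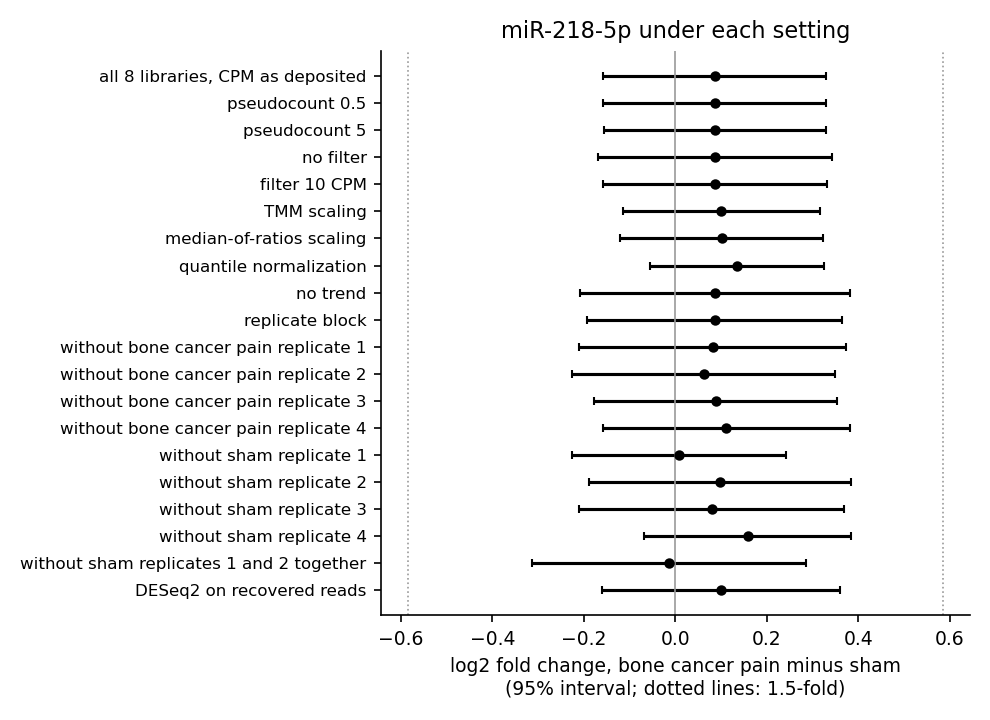
Log2 fold change of miR-218-5p, bone cancer pain minus sham, with its 95% interval under each setting (limma, and DESeq2 in the last row); edgeR gives no interval and is not drawn. Each interval holds 0 and lies inside the dotted lines at 1.5-fold.

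The 2 gene-specific 3p arms were close to the limit of what these libraries can count. miR-218-1-3p, from Slit2, was at 1.60, 1.15, 1.00 and 0.620 CPM in bone cancer pain 1 to 4 and at 0.520, 1.04, 1.11 and 1.30 CPM in sham 1 to 4. Its lowest values, in bone cancer pain 4 and sham 1, came from 7 and 5 reads, and its highest, in bone cancer pain 1, from 13 reads. miR-218-2-3p, from Slit3, was at 0.740, 0.580, 0.800 and 0.530 CPM in bone cancer pain 1 to 4 and at 0.520, 0.440, 0.320 and 1.43 CPM in sham 1 to 4. Sham 4 alone exceeded 1 CPM, with 11 reads, and the other libraries had 4 to 8 reads. Every one of these counts was above the floor of 3 reads.

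With all 8 libraries, neither 3p arm differed between the groups beyond the spread of the libraries. The mean of miR-218-1-3p was 1.09 ± 0.405 CPM in bone cancer pain and 0.993 ± 0.334 CPM in sham (SD, n = 4 each), and its log2 fold change 0.07 (interval -0.36 to 0.49 at 95%; limma adjusted p = 0.967). Its mean over the 8 libraries, 1.04 CPM, put it just above the filter of 1 CPM, and that of miR-218-2-3p, 0.670 CPM, put it below, so that 2 of the 3 arms entered the fit. For miR-218-2-3p the mean was 0.663 ± 0.128 CPM in bone cancer pain and 0.678 ± 0.508 CPM in sham, with a log2 fold change of 0.03 (two-sided exact permutation p = 0.914; smallest p possible 0.0286). Sham 4 set that value: without it the log2 fold change was 0.22, the 4 bone cancer pain values (0.530 to 0.800 CPM) all lay above the other 3 sham values (0.320 to 0.520 CPM), and the two-sided exact permutation p was 0.0571, the smallest that 4 libraries against 3 can give. The nearest values, in bone cancer pain 4 (0.530 CPM, 6 reads) and sham 1 (0.520 CPM, 5 reads), lay less than the worth of 1 read apart. The share of all tested miRNAs that separate without sham 4 was not counted. Over all 8 libraries the mean CPM of miR-218-2-3p was lower and its mean log2 value higher in bone cancer pain. With all 8 libraries the groups overlapped for all 3 arms, where 3.64% of the miRNAs tested had groups that did not overlap. Adding 1 CPM shrinks differences at these levels; on the recovered reads DESeq2 put the log2 fold change of miR-218-1-3p at 0.14 (-0.79 to 1.08 at 95%) and, with no filter, that of miR-218-2-3p at 0.07 (-1.09 to 1.24). These intervals hold both counting error and the spread between libraries; the first excludes a 2-fold decrease but not a 2-fold increase, and the second excludes neither.

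The sparse 3p reads were divided between the genes, which gives shares of 3p reads and not of the miR-218 made by each gene. Reads of the shared arm cannot be assigned to a gene. Whether the same part of the 3p strand is kept from both hairpins was not tested. Summed over libraries, miR-218-1-3p had 44 reads in bone cancer pain and 43 in sham, and miR-218-2-3p had 27 reads in bone cancer pain and 26 in sham. The Slit2 copy thus gave 62.1% of the 140 3p reads (95% Clopper-Pearson interval 53.6% to 70.2%, counting error only). By library its share was 68.4%, 66.5%, 55.6% and 53.9% in bone cancer pain 1 to 4 and 50.0%, 70.3%, 77.6% and 47.6% in sham 1 to 4. The share was above that of the Slit3 copy in 6 libraries, equal in sham 1 and below it in sham 4. Between the groups it did not separate, at 61.1% ± 7.40 in bone cancer pain and 61.4% ± 14.9 in sham (SD, n = 4 each; two-sided exact permutation p = 1, smallest possible 0.0286).

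**Figure D3:**
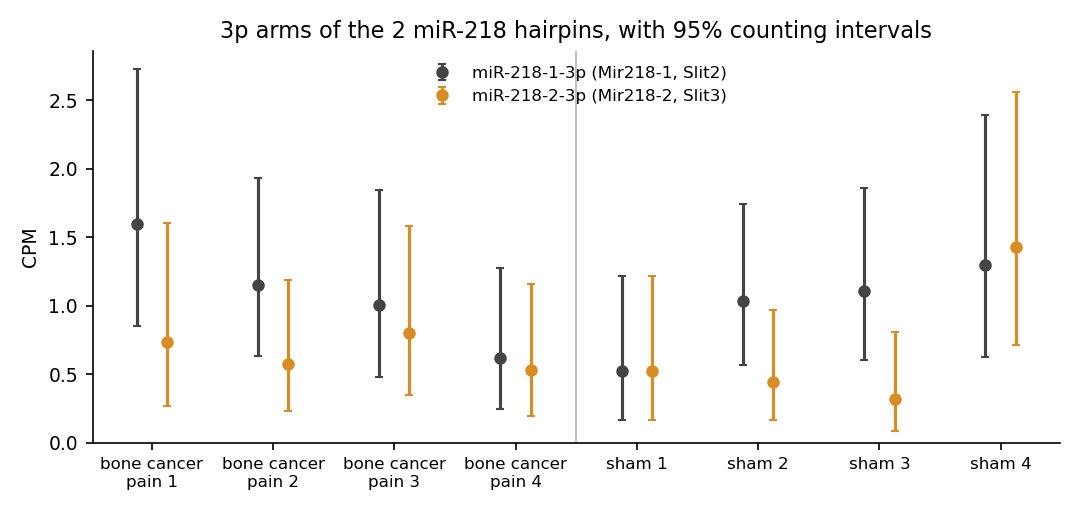
Level in CPM of the 3p arms of the 2 miR-218 genes in each library, with 95% Poisson intervals of the read counts. The intervals of the 2 arms overlap in all 8 libraries, and miR-218-1-3p is the higher in 6 of them.

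Within libraries, miR-218-1-3p exceeded miR-218-2-3p by a mean of 0.29 in log2(CPM + 1) (SD 0.29; higher in 6 of 8 libraries, two-sided exact sign-flip permutation p = 0.0313). Adjusted over the 3 tests of this kind, which are this one and the group differences of the 2 shares, p was 0.0938, which misses 0.05. With any 1 library left out the mean difference stayed between 0.24 and 0.35. The sign-flip p was 0.0313 without sham 1 or sham 4 and 0.0625 without any other. Few values of p are possible with 7 libraries, the smallest being 0.0156 where no difference is 0. In sham 1 the 2 arms were equal, so a set that keeps sham 1 cannot reach 0.0156. The 0.0313 without sham 4 is the smallest possible there. The mean difference was 0.31 in bone cancer pain alone and 0.27 in sham alone, where 4 libraries cannot give a p under 0.125. Sham alone, which holds sham 1, cannot reach even 0.125. Ligation and amplification act on each sequence differently, so the ratio of 2 arms in reads is not the ratio of their molecules.

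The shared arm outnumbered its partners by far. Per read of either 3p arm there were 3605 reads of miR-218-5p over all libraries. The 3p arms made up 0.0379%, 0.0269%, 0.0296% and 0.0198% of miR-218 in bone cancer pain 1 to 4 and 0.0212%, 0.0251%, 0.0251% and 0.0407% in sham 1 to 4. The means, 0.0285% ± 0.00746 in bone cancer pain and 0.0280% ± 0.00866 in sham (SD, n = 4 each), differed by far less than the spread (two-sided exact permutation p = 0.886). Among 152 miRNAs with both arms listed and at least 100 CPM in sum, gene copies added together, miR-218 ranked 23rd from the lowest in the share of its less abundant arm, which was 0.0287% against a median of 1.18%.

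**Figure D4:**
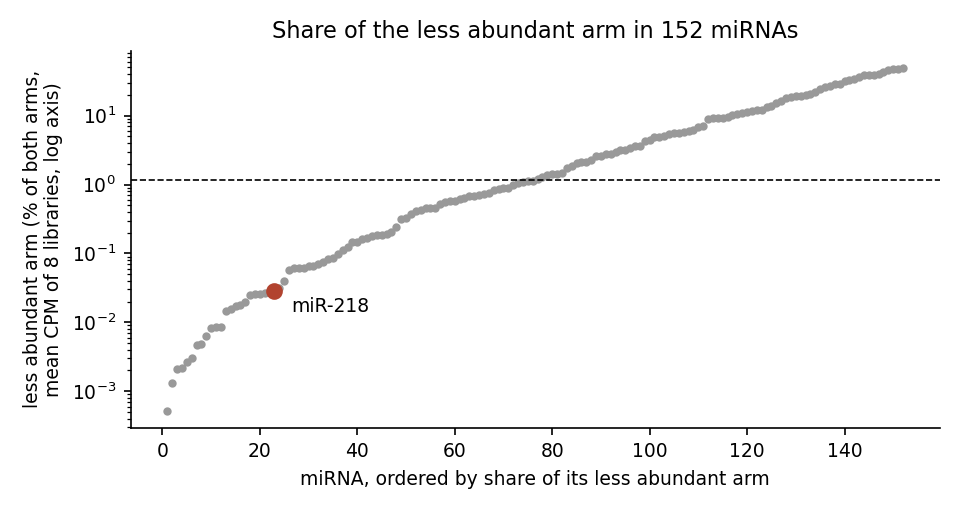
Share of the less abundant arm in percent of both arms (log axis, mean CPM of 8 libraries) for 152 miRNAs in rising order; the dashed line is the median, 1.18%. miR-218, in red, stands at 0.0287%, 23rd from the left.

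A comparison with other miRNAs whose names mark 2 gene copies sets these levels in context. There were 20 such miRNAs, miR-218 among them, with 1 shared arm of at least 100 CPM and 2 copy-specific arms on the other side. The copy-specific arms of miR-218 summed to the third lowest level of the 20, although its shared arm, at 5961 CPM, was well above that of the neuron-enriched miR-129 (3925 CPM) and miR-138 (195 CPM), both named outside the naming rule. miR-129 had copy-specific arms at 53.7 and 155 CPM, and miR-138 at 8.44 and 18.9 CPM, and in each the second copy was the higher in all 8 libraries. Low copy-specific arms were not particular to miR-218 among neuron-enriched miRNAs. The shared arm of miR-128 stood at 14743.5 CPM and its copy-specific arms at 4.675 and 1.13 CPM, a sum that ranked 4th from the lowest. For miR-218 the larger arm was 1.56 times the smaller in mean CPM, the third smallest ratio of the 20, after let-7f (1.05) and miR-125b (1.23). These positions are descriptions with no test, and let-7a and let-7c share reads of their copy-specific arms.

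**Figure D5:**
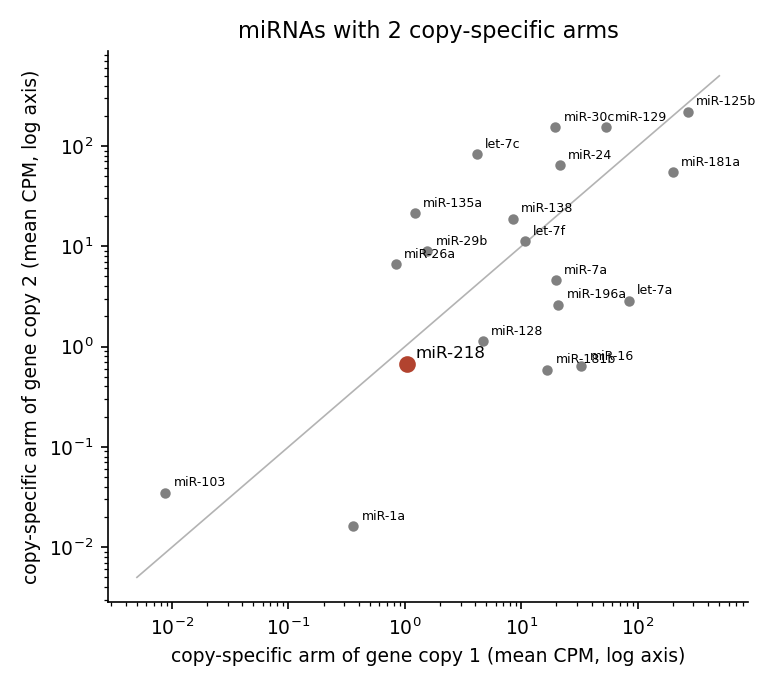
Mean CPM over 8 libraries of the copy-specific arm of gene copy 1 against that of gene copy 2 for 20 miRNAs (log axes); points on the grey line have equal arms. miR-218, in red, lies near the line at 1.04 and 0.670 CPM.

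Whether the 3 arms vary together across libraries was tested over the 8 libraries, with 3 correlations in all. miR-218-5p and miR-218-1-3p had a Pearson r of 0.76 (exact permutation p = 0.0268, adjusted 0.0804) and a Spearman rho of 0.76 (exact permutation p = 0.0368, adjusted 0.0551). Without sham 1 and sham 4, the libraries farthest from the median of miR-218-5p, r was 0.48 (exact permutation p = 0.318). Only 6 libraries with a narrower range remained, which cannot show whether the relation held. Leaving out sham 1 lowered r the more: it was 0.52 without sham 1 alone (exact permutation p = 0.224) and 0.74 without sham 4 alone (exact permutation p = 0.0550). After TMM scaling of all 8 libraries r was 0.76. For miR-218-5p and miR-218-2-3p, r was 0.61 (exact permutation p = 0.124, adjusted 0.185) and rho 0.79 (exact permutation p = 0.0279, adjusted 0.0551). That r was 0.65 without sham 1 and sham 4 (exact permutation p = 0.165) but -0.03 after TMM scaling. The 2 gene-specific arms had an r of 0.39 (exact permutation p = 0.341, adjusted 0.341) and a rho of 0.40 (exact permutation p = 0.327, adjusted 0.327), and an r of 0.38 without sham 1 and bone cancer pain 4. None passed after adjustment over all 8 libraries, and each value of the 3p arms rests on 4 to 14 reads.

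Among 355 other miRNAs averaging 10 CPM or more, the levels most like those of miR-218-5p across the 8 libraries were those of miR-30a-3p, with a Pearson r of 0.91 in log2(CPM + 1). It stood at 1553 ± 109 CPM in bone cancer pain and 1517 ± 283 CPM in sham. Next came miR-338-3p (r = 0.84), miR-676-3p (0.83), miR-338-5p (0.82), miR-92b-3p (0.80) and miR-872-5p (0.80), against a median r of 0.31 over the 355. All 6 had their lowest value in sham 1, as miR-218-5p did. After TMM scaling, a setting added after the data were seen, r was 0.79 for miR-30a-3p, 0.91 for miR-338-3p, 0.70 for miR-676-3p and 0.60 for miR-872-5p, but 0.40 for miR-338-5p and 0.44 for miR-92b-3p. miR-338, a miRNA of oligodendrocytes, is thus present with both arms, of which the 3p arm kept its likeness under that scaling. The lowest r, -0.81, was that of miR-499-5p, a miRNA of striated muscle, which reached 326 CPM in sham 1 and stayed at or under 19.0 CPM elsewhere.

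Other miRNAs with known roles in spinal patterning or motor neurons were taken as a list: miR-9, miR-124, the miR-17-92 members, miR-27, miR-375, miR-196 and miR-10. Of its 29 listed arms 25 were tested, 16 were higher in bone cancer pain and 9 lower, and 0 passed the adjusted threshold with limma. The median log2 fold change was 0.10, beside -0.01 over all tested. At an unadjusted p under 0.05 there were 4 arms, beside 4.63% of all tested: miR-17-5p (0.47), miR-20a-5p (0.43) and miR-27a-3p (0.68) with positive and miR-196a-2-3p (-0.71) with negative log2 fold changes, all named after their values were seen. The 3 most abundant were miR-10b-5p, which marks Hox-expressing cord with a mean of 107994 ± 15256 CPM in bone cancer pain and 112731 ± 8836 CPM in sham, miR-9-5p, a miRNA of neural progenitors and neurons, with a log2 fold change of -0.01, and miR-10a-5p, with one of 0.14.

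The lists for other cell types of the cord and its surroundings had 0 members past the adjusted threshold with limma, and 2 of 49 tested (4.08%, beside 4.63% of all tested) at an unadjusted p under 0.05, the vascular miR-143-3p and miR-145a-3p (log2 fold changes 0.72 and 0.53), named after their values were seen. Neuron-enriched miRNAs were higher for 11 and lower for 12 of 23 tested, with a median log2 fold change of -0.02. Summed, they stood at 18482 to 25226 CPM in bone cancer pain and 18687 to 24957 CPM in sham. miR-124-3p, the guide arm of a miRNA of differentiated neurons, was at 975 ± 215 CPM in bone cancer pain and 899 ± 242 CPM in sham, far below miR-218-5p in reads. Oligodendrocyte miRNAs had a median of -0.06 over 5 tested and sums of 2442 to 2601 CPM in bone cancer pain and 2065 to 3979 CPM in sham. Sensory ganglion miRNAs had a median of 0.19 over 3 tested, with sums of 2348 to 2847 CPM in bone cancer pain and 1545 to 2775 CPM in sham. The medians of the skeletal muscle, vascular and erythroid lists were -0.98, 0.27 and 0.49, with 6, 6 and 6 arms tested. In bone cancer pain 0 muscle arms were higher and 6 lower, 6 vascular arms higher and 0 lower, and 5 erythroid arms higher and 1 lower. For sensory ganglion arms these counts were 3 and 0, and for oligodendrocyte arms 2 and 3. Over all tested miRNAs 292 were higher and 313 lower. The directions of whole lists were not tested, and arms of the same miRNA, such as miR-126a-3p and miR-126a-5p, are not separate observations. The muscle sums were highest in sham 1 (29300 CPM) and sham 2 (24018 CPM) and lowest in sham 3 (5379 CPM). No list had a member at 0 in all libraries.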

How the data were processed

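Small RNA of 8 left spinal cord libraries was measured, 4 labelled bone cancer pain and 4 sham. Per the labels' protocols, TRIzol was used for extraction, with rRNA removal and fragmentation; no small RNA size selection is described. The submitters' processing notes name fastp, STAR, Bowtie, Salmon and mm10 without role or version. CPM values rounded to 2 decimals were deposited by the authors as 1 table; a library's values sum to 669252 to 701908, and 0 columns were left unmapped.

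The value of 1 read was recovered from the steps between values; with a tolerance of 0.0051 CPM, 99.8% to 100% of values above 0 were whole reads. The step of bone cancer pain 3, 0.100 CPM, is too near 0.1 for an automatic test to tell it from rounding, but of the values from 1 CPM upward only 16.6% lay on multiples of 0.1 CPM. Library totals were 7686762 to 13498956 reads, and 3 reads, the floor, are 0.222 to 0.390 CPM. The Poisson and Clopper-Pearson intervals and the floors cover counting error only. No library was a copy of another of its group (chi-square over miRNAs with at least 10 reads in a pair, divided by its degrees of freedom, 31.8 to 503).

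Testing was limited to miRNAs averaging 1 CPM or more (605 of 1396), analysed as log2(CPM + 1) with R 4.3.3 and limma 3.58.1 (moderated by empirical Bayes along a mean-variance trend, two-sided, adjusted after Benjamini-Hochberg over all tested, threshold 0.05); the procedure was tested on simulated data. edgeR 4.0.16 (quasi-likelihood) and DESeq2 1.42.0 were run on recovered reads. Shares, ratios, correlations and miR-218-2-3p were tested by exact permutation. Hairpins were folded with RNAfold 2.7.2.

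The text names the 3 arms, the 2 neighbours on each side in mean level, any miRNA with a shared seed, the 6 of highest likeness, and lists' 3 most abundant members where a result turns on them. The 3 arms and the lists were chosen with earlier results of these data known.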

Additional observations from a re-analysis of the deposited data

Results flagged for a closer look

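A library was taken to stand apart where its gap to the nearest of its group, divided by the range of the group, was above Dixon's critical value at 95%. No value of the 3 miR-218 arms or their shares passed it, but sham 4 came close, with a ratio of 0.820 for miR-218-2-3p (1.43 CPM, the next 0.520 CPM) and 0.799 for the 3p share of miR-218. Chance gives about 1 in 20 for independent, normally distributed values. The list sums checked include their own members, so the count that follows cannot show an excess over that rate. Of 92 groups of 4 libraries checked, 10 held 1 library far from the other 3. In bone cancer pain 4 these were the skeletal muscle miRNAs miR-1a-3p (16164 CPM), miR-133a-3p (447.9 CPM) and miR-206-3p (295.8 CPM) and their list's sum (16950 CPM). In bone cancer pain 3 they were miR-128-3p (18262 CPM) and the sum of neuron-enriched miRNAs (25226 CPM), which includes it. In sham 1 miR-676-3p was low, at 13.0 CPM, and miR-143-3p (24514 CPM) and the vascular sum (29488 CPM), which includes it, were high. In sham 4 miR-124-3p was high, at 1259.7 CPM.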

How the results depend on the processing

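The count of miRNAs past the adjusted threshold was 0 under all 22 alternatives. The log2 fold change of miR-218-5p stayed on the same side of the threshold throughout and ranged from 0.0079 to 0.16 with 1 library left out; it turned to -0.013 without sham 1 and sham 2 together. That of miR-218-1-3p ranged from -0.058 to 0.18 with 1 library left out, reaching -0.044 with bone cancer pain 1 and -0.058 with sham 1 left out, and was -0.095 without sham 1 and sham 2 together; a filter of 10 CPM left it out. That of miR-218-2-3p ranged from -0.074 to 0.22, the highest without sham 4 (two-sided exact permutation p = 0.0571, the smallest possible there), and was -0.11 without sham 1 and sham 2; leaving out bone cancer pain 3 gave -0.012, and leaving out sham 1, 2 or 3 gave -0.0057, -0.032 and -0.074. The group difference in the share of miR-218-1-3p, -0.298 percentage points, ranged from -4.88 to 5.12 with 1 library left out (1.54 and 2.09 with bone cancer pain 3 or 4 left out, 2.67 and 5.12 with sham 2 or 3 left out) and was 0.0396 as a log2 ratio. The difference in the 3p share, 0.00052 percentage points, ranged from -0.00259 to 0.00476 (-0.00259 with bone cancer pain 1 left out, -0.00175, -0.000471 and -0.000447 with sham 1, 2 or 3 left out) and was -0.0208 as a log2 ratio. The cause of these turns was not tested.

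The log2 ratio of miR-218-1-3p to miR-218-2-3p kept its sign under all 12 alternatives, from 0.240 to 0.348 with 1 library left out, with p above 0.05 in 6 of those 8; it was 0.315 in bone cancer pain alone and 0.275 in sham alone, with fewer libraries. The correlation of miR-218-5p with miR-218-1-3p ranged from 0.523 to 0.828 with 1 library left out, passing the adjusted threshold (0.0476) without bone cancer pain 1, and that with miR-218-2-3p from 0.385 to 0.847, passing (0.0399) without sham 1; after TMM scaling miR-218-5p and miR-218-2-3p had an r of -0.0345.

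Same-numbered libraries of the groups did not deviate together: their correlations over the tested miRNAs were -0.31 to -0.011, and 0 of 8 libraries correlated best with its own number. With the replicate block the log2 fold change of miR-218-5p was 0.086 (limma adjusted p = 0.939) and the count past the threshold 0. The 3p arms rest on 4 to 14 reads a library, and how much of their spread is counting error was not tested.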
